A study of Drosophila melanogaster with 6 samples.

Results

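The genes described are the 6 larval serum storage protein genes Lsp1alpha, Lsp1beta, Lsp1gamma, Lsp2, Fbp1 and Fbp2, taken by name from a table of 13541 genes, in which all 6 have a row. The table compares messenger RNA of whole adult heads of Drosophila melanogaster between 3 samples labelled miR-210 mutant, described as M22-3, and 3 samples of w1118, a white-eyed laboratory strain used as control. miR-210 is a microRNA, a short RNA that represses messenger RNAs. The sources used here do not state the age or sex of the flies, the nature of the mutation or the number of heads per sample, nor that the control shares the genetic background of the mutant, so the mutation and any strain difference cannot be told apart.

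Larval serum proteins are hexamerins, storage proteins of the hemocyanin superfamily that the fat body, the liver-like organ of the fly, makes in bulk late in larval life. They are secreted into the hemolymph, taken back into the fat body before the pupa forms, and broken down as a source of amino acids for building the adult. LSP1 is assembled from alpha, beta and gamma subunits, and LSP2 from one kind of subunit. Fbp1 encodes the fat body receptor that takes the proteins up, and Fbp2 a fat body protein related to alcohol dehydrogenase. Their main time of expression is thus larval. Fat body markers were also found in these adult heads, as given below.

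All values are normalized read counts, which are reads divided by a size factor that puts libraries on one scale. The table gives the mean of each group, and the whole reads of each library were recovered from these means for 13169 genes (97.3%), the 6 storage protein genes among them. A recovered library has no replicate number; the libraries are called deepest, middle and shallowest by size factor within their group. Mutant libraries held between 6257409 and 9194231 reads in recovered genes, and control libraries between 8915003 and 16462836. Whether samples were taken from different flies is not in the labels, so each p-value speaks of the spread among these 6 samples alone, which may be technical. In both groups the deepest library stood apart: the summed normalized count of 11 neuronal genes was 36791 in the deepest mutant library against 14726 and 19155 in the others, and 55981 in the deepest control library against 23926 and 24161. The fat body markers apolpp, Apoltp, Lsd-1, AkhR and bmm were present in both groups, with authors' means in the mutant between 1591 (bmm) and 73990 (apolpp) and in the control between 1292 and 40730.

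Of the 6 storage protein genes, the authors' deposited table calls 2 higher and 0 lower in mutant heads (adjusted p below 0.05). Lsp2 rose 37.6-fold and Lsp1beta 10.4-fold, while Lsp1gamma, Lsp1alpha, Fbp1 and Fbp2 had at most 51 reads in any library and did not pass. Across all 11155 genes tested, 4.46% were called in either direction and 2.56% were called higher. At an unadjusted p under 0.05, 4 of the 6 passed in the authors' deposited table, 2 of them lower in the mutant, where 12.0% of all tested genes did.

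Lsp2, at chr3L:12129393-12131869 on the plus strand (dm6), is annotated as a protein-coding gene with 1 exon. Its normalized counts were 608, 123 and 1068 in the deepest, middle and shallowest mutant libraries. In the control libraries they were 19.7, 10.2 and 17.9 in the same order. Every mutant library was above every control library, and the lowest mutant library stood well apart from the other two. The mean was 600.0 ± 472 in the mutant and 15.97 ± 5.05 in the control (SD, n = 3 each). In the authors' deposited table the log2 fold change was 5.23 (adjusted p = 3.09e-11), which places it 11th by fold change among the 286 genes called higher. Without the shallowest mutant library the fold was 22.9, and without the middle one 52.5. On the recovered libraries limma gave 4.72 ± 0.76 (log2 fold change ± SE, adjusted p = 0.0491), against 0.992% of 11596 genes called. limma made this call in 4 of 14 settings (adjusted p from 0.0145 to 0.238), and leaving out any single library other than the middle mutant one ended it (adjusted p from 0.0957 to 0.238).

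Lsp1beta, at chr2L:898500-901316 on the plus strand, has 2 exons. Per kilobase of gene length it stood above Lsp2 in every library. Its normalized counts were 1455, 688 and 4273 in the deepest, middle and shallowest mutant libraries. The control libraries gave 154, 323 and 138. The groups did not overlap, and the lowest mutant library, the middle one, was also the lowest for Lsp2. The mean was 2139 ± 1888 in the mutant and 205 ± 102 in the control (SD, n = 3 each), and the authors' deposited table gives a log2 fold change of 3.38 (adjusted p = 2.40e-05). Leaving out the shallowest mutant library gave a fold of 5.22. limma on the recovered libraries gave 3.09 ± 0.67 and did not call it (adjusted p = 0.125), nor did it under any of the 13 other settings run (adjusted p from 0.121 to 0.400).

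Both genes were higher in the mutant between the deepest libraries and also between the other 4. The comparison of deepest libraries rests on a single library per group, matched by depth rank alone, so the sizes are a description. On the scale of log2(normalized count + 1), Lsp2 was higher by 4.88 between the deepest libraries of the groups and by 4.64 between the means of the other 4 libraries. For Lsp1beta these values were 3.23 and 3.01. When depth rank (deepest or not) was a term, limma called 16.0% of all genes and neither of these 2 (adjusted p = 0.0649 for Lsp2 and 0.148 for Lsp1beta).

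**Figure D1:**
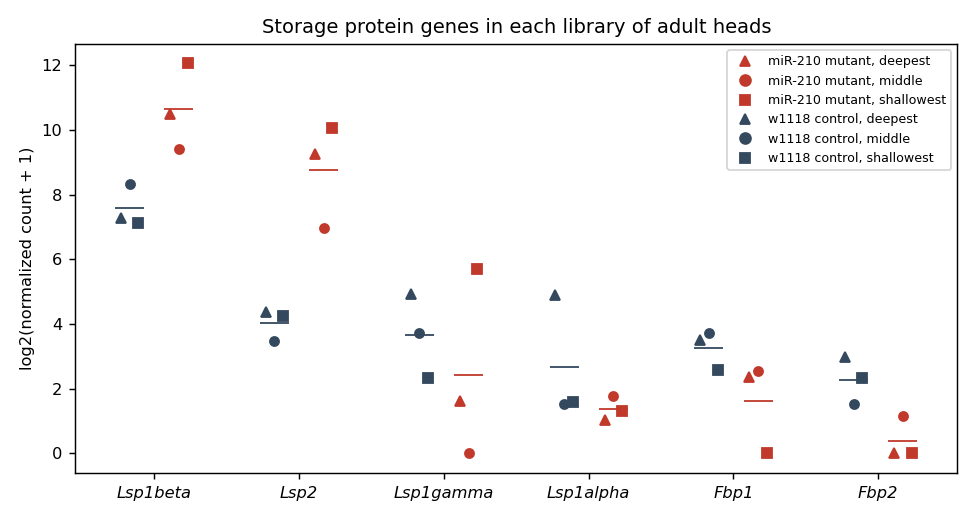
Normalized counts of the 6 storage protein genes on a log2(normalized count + 1) scale (vertical axis), with 1 point per recovered library and a horizontal line at the group mean on that scale. Mutant libraries lie above all control libraries for Lsp1beta and Lsp2, and the other 4 genes lie at low counts. The highest of these are Lsp1gamma in the shallowest mutant library (50.6) and Lsp1gamma and Lsp1alpha in the deepest control library (29.6 and 29.0).

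The spread of both genes was wide within the mutant group. The highest mutant library was 8.66 times the lowest for Lsp2 and 6.21 times for Lsp1beta. Among 9279 recovered genes with a mutant mean of at least 10 and no library at 0, the median of this ratio was 1.49, and Lsp2 and Lsp1beta stood at percentiles 99.2 and 98. In the control group the ratios were 1.93 for Lsp2 and 2.33 for Lsp1beta, at percentiles 77.6 and 86.2 of 9429 genes. Over the 6 libraries the log2 values of these 2 genes had a Pearson r of 0.93, given as a description, since the libraries fall into 2 groups.

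Lsp1gamma, which encodes the gamma subunit of LSP1, lies at chr3L:66430-68995 on the plus strand. Its normalized counts were 2.06, 0 and 50.6 in the deepest, middle and shallowest mutant libraries; control libraries gave 29.6, 12.1 and 3.99. The groups overlapped, and 34 of the 36 mutant reads came from the shallowest library. The authors' deposited table gives a log2 fold change of 0.18 (adjusted p = 0.988). limma on the recovered libraries gave -1.22 ± 1.46 (adjusted p = 0.836), so its direction is not set by these data. Leaving out the shallowest mutant library took the mutant mean from 17.5 to 1.03.

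Lsp1alpha, the X-linked subunit gene, lies at chrX:12490291-12492982 on the plus strand. It had 1, 2 and 1 reads in the deepest, middle and shallowest mutant libraries and 50, 2 and 2 reads in the control libraries. As normalized counts these are 1.03, 2.42 and 1.49 against 29.0, 1.86 and 1.99. The groups overlapped, with a single high library. The authors' deposited table lists it at -2.77 on the log2 scale (adjusted p = 0.414). Without the deepest control library the means were 1.65 in the mutant and 1.93 in the control.

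Fbp1, the receptor gene, lies at chr3L:14094589-14098053 on the minus strand. Its normalized counts were 4.11, 4.84 and 0 in the deepest, middle and shallowest mutant libraries; control libraries gave 10.5, 12.1 and 4.98. The groups did not overlap, though the margin between 4.84 and 4.98 is less than 1 read. The authors' deposited table lists it at -1.57 on the log2 scale (adjusted p = 0.607). Over the summed reads, 8 in the mutant and 36 in the control, the control level was 2.93 times the mutant level (95% exact interval 1.34 to 7.29). Such intervals cover counting error only.

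Fbp2, at chr2L:9426784-9427917 on the plus strand, had the fewest reads of the 6 genes. There were 0, 1 and 0 reads in the mutant libraries, while the control libraries gave 12, 2 and 4 reads. The control level over summed reads was 11.7 times the mutant level (95% exact interval 1.85 to 488). A count of 0 allows up to 3 reads, a normalized count of 3.08 in the deepest and 4.46 in the shallowest mutant library, and the middle and shallowest control libraries gave 1.86 and 3.99. A difference from the middle control library was therefore not detectable at this depth. The authors' deposited table gives a log2 fold change of -3.30 (adjusted p = 0.412).

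Groups of libraries did not overlap for 4 of the 6 genes (Lsp2, Lsp1beta, Fbp1 and Fbp2), where 18.3% of the 10783 tested and recovered genes had no overlap. As for Fbp1, the margin for Fbp2 is less than 1 read, between 1.21 in the middle mutant and 1.86 in the middle control library. In an exact two-sided permutation test over libraries each of the 4 genes without overlap had p = 0.1, the smallest that 3 against 3 allows. After Benjamini-Hochberg adjustment over the 8 such tests run, which include the 2 ratios described next, it was 0.133. Lsp1alpha had an exact p of 0.4 and Lsp1gamma of 1.

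**Figure D2:**
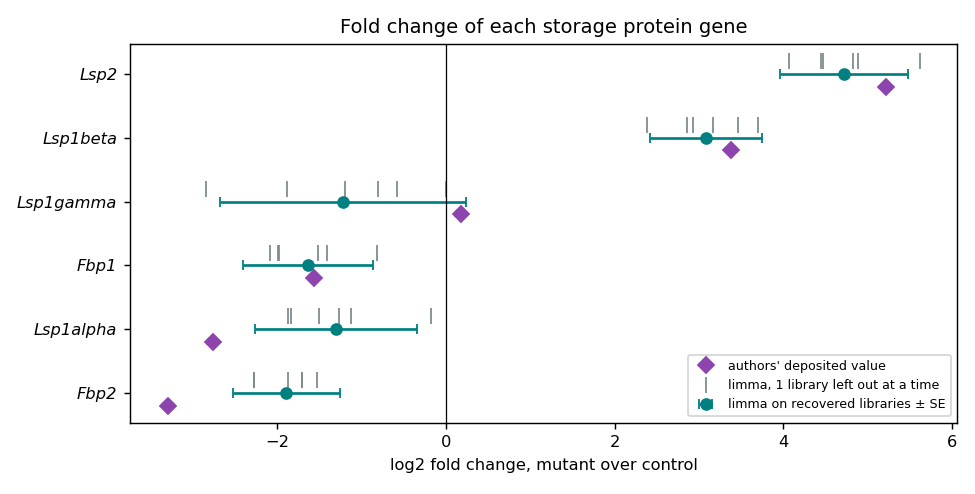
Log2 fold change, mutant over control (horizontal axis), of each storage protein gene: the authors' deposited value (diamond), limma on the recovered libraries with its SE (circle and bar), and limma with 1 library left out at a time (ticks). Lsp2 and Lsp1beta stay above 0 throughout, from 4.07 and 2.39 upward with 1 library left out, and Lsp1gamma has its authors' value above 0 and its limma values below 0.

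The make-up of LSP1 transcripts also differed between libraries. Lsp1beta held 99.8%, 99.6% and 98.8% of the LSP1 reads in the deepest, middle and shallowest mutant libraries. In the control libraries it held 72.5%, 95.9% and 95.9%, with 95% exact binomial intervals of 67.6 to 77.0%, 93.3 to 97.7% and 91.2 to 98.5%. The mutant shares were all above the control shares (exact permutation test, two-sided, p = 0.1, adjusted p = 0.133). This share is computed from the Lsp1beta counts given above and is no separate support for their rise. In the deepest control library Lsp1alpha and Lsp1gamma held 13.6% and 13.9% of LSP1 reads, while in the other 2 control libraries Lsp1alpha held 0.552% and 1.38% and Lsp1gamma 3.59% and 2.76%. The LSP1 subunit genes are related in sequence, and how reads that map to more than one of them were counted is not stated in the labels. The split among subunits is uncertain to that extent.

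**Figure D3:**
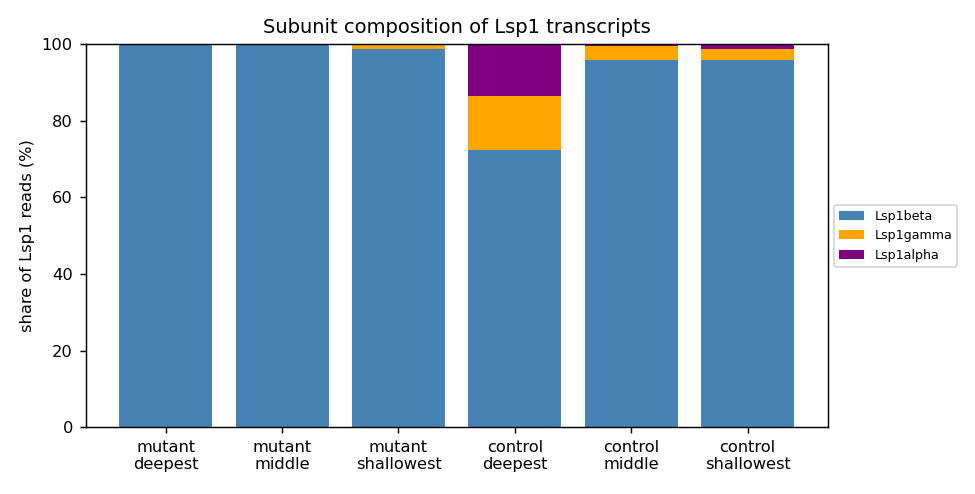
Share of LSP1 reads (vertical axis, percent) from Lsp1beta, Lsp1gamma and Lsp1alpha in each recovered library, as stacked bars. Lsp1beta takes at least 98.8% in the mutant libraries, and the deepest control library has the lowest Lsp1beta share, 72.5%.

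The ratio of Lsp1beta to Lsp2 counts was 2.39, 5.58 and 4 in the deepest, middle and shallowest mutant libraries; control libraries gave 7.82, 31.5 and 7.72. Ratios were lower in all mutant libraries than in any control library, and the test, which cannot go below 0.1 at this size, did not pass (exact permutation test on the log2 ratio, two-sided, p = 0.1, adjusted p = 0.133). Lsp2 made up 29.4%, 15.2% and 19.8% of the reads of the 4 Lsp genes in the mutant libraries, and in the control libraries 8.48%, 2.95% and 11.0%.

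Per kilobase of gene length, the order of levels in the mutant was Lsp1beta (mean normalized count per kilobase 778 ± 687, SD, n = 3), Lsp2 (242 ± 191), Lsp1gamma (7.02 ± 11.4), Fbp1 (0.861 ± 0.753), Lsp1alpha (0.627 ± 0.270) and Fbp2 (0.376 ± 0.650). Lsp2 lay above Lsp1gamma in all mutant libraries, and every other pair of neighbours in this order overlapped in range. In the control the order was Lsp1beta (74.7 ± 37.1), Lsp2 (6.45 ± 2.04), Lsp1gamma (6.09 ± 5.24), Lsp1alpha (4.18 ± 5.96), Fbp2 (3.98 ± 2.39) and Fbp1 (2.65 ± 1.07), and Lsp1beta alone was separated from its neighbour. Among the levels per kilobase of all 13541 genes, Lsp2 stood at percentile 67.1 in the mutant and 24.5 in the control, and Lsp1beta at 85.9 and 45.4. Together the 6 genes took 219, 91.5 and 579 of each 1000000 reads in recovered genes in the deepest, middle and shallowest mutant libraries; control libraries gave 26.2, 40.7 and 19.3.

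No gene next to a storage protein gene was called higher. Beside Lsp2, yps, which encodes a Y-box RNA-binding protein and lies 4243 bases to the left on the other strand, fell (log2 fold change -0.96, adjusted p = 0.000211), and CG11534, 277 bases to the right, stood at 0.33 (adjusted p = 0.702) in the authors' deposited table. Beside Lsp1beta, CG15824 had 0.75 (adjusted p = 0.749), and the noncoding CR45261, with authors' means of 0.685 and 0, was not tested. The nearest rows on either side of Lsp1alpha (Cpr11A, -0.05, and Mks1, -0.31), Lsp1gamma (CG43149, -0.02, and CG12483, 0.03), Fbp1 (CG8100, -0.54, and Sox21a, 0.41) and Fbp2 (Mco1, -0.20, and FucTB, -0.46) did not pass in the authors' deposited table. CG42847 overlaps Fbp2 by 48 bases on the same strand, with authors' means of 0 and 0.620.

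Transcripts of other larval tissues were measured beside the low storage protein genes. The deepest control library had reads of all 19 larval and prepupal genes of a list that were recovered, against 8 or 9 of them in each other library. Such a count depends on depth, and this library had 16462836 reads in recovered genes, against at most 9535336 in any other. For 7 markers of larval salivary gland and larval cuticle (Sgs3, Sgs7, Sgs8, Lcp1, Lcp2, Lcp3 and Lcp4), the summed normalized count was 251 in the deepest control library, 15.8 and 44.8 in the other control libraries, and 13.4 to 39.9 in the mutant libraries. The larval cuticle genes Lcp3 and Lcp4 were at 88.3 and 89.4 in that library and at most 6.97 in any other. Of the 3 glue protein genes, Sgs3 and Sgs7 were at 0 in all 3 mutant libraries and Sgs8 was at 1.03, 3.63 and 1.49 in the deepest, middle and shallowest. Sgs3 was also at 0 in the middle and shallowest control libraries, and Sgs7 in the middle one. Lcp1 had reads in all 6 libraries, from 10.3 to 33.9. The deepest control library was also the highest control library for Lsp1alpha, Lsp1gamma, Fbp2 and, at 19.7 against 17.9 in the shallowest, Lsp2. For Lsp1beta and Fbp1 the middle control library was the highest, at 323 and 12.1, against 154 and 10.5 in the deepest. The part of the larval signal in the storage protein values was not tested. Without the deepest control library the folds of Lsp2 and Lsp1beta were 42.6 and 9.27.

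**Figure D4:**
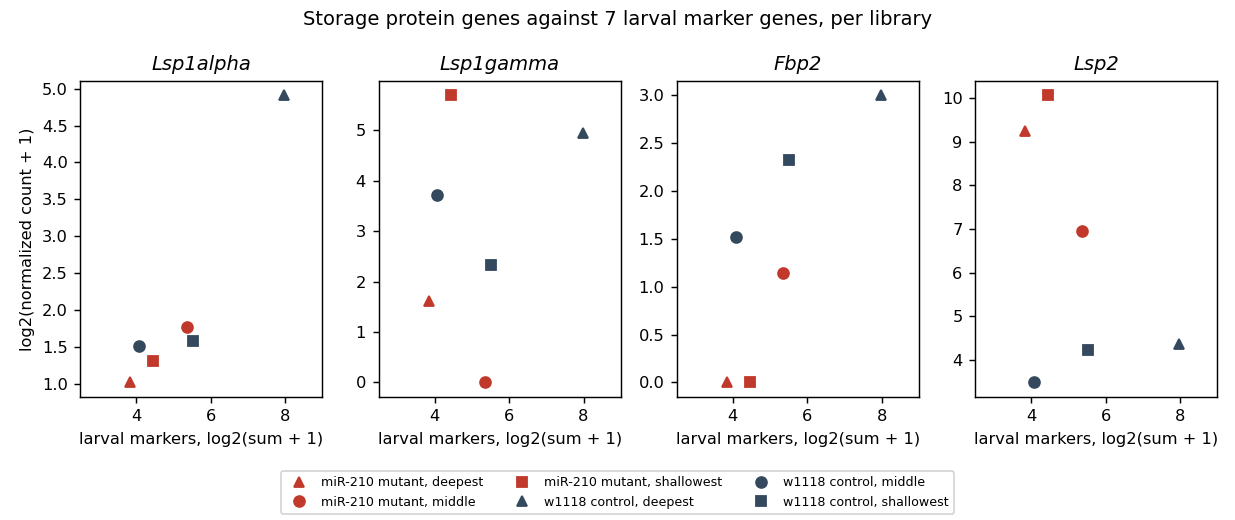
Log2(normalized count + 1) of Lsp1alpha, Lsp1gamma, Fbp2 and Lsp2 (vertical axes) against the log2 of 1 plus the summed normalized count of 7 larval marker genes (horizontal axes), with 1 point per recovered library. The deepest control library, at a sum of 251, is the highest point for Lsp1alpha and Fbp2, whereas Lsp2 is highest in mutant libraries with sums between 13.4 and 39.9.

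Some fat body transcripts were also higher in the mutant. Of 21 fat body genes tested, 7 rose and 0 fell in the authors' deposited table, where 2.56% of all tested genes were called higher. The median log2 fold change of the list was 0.63, against -0.04 for all tested genes. The odorant-binding protein gene Obp99a rose by 2.78, the fatty acid synthase gene FASN1 by 1.23 and the acetyl-CoA carboxylase gene ACC by 0.98. The lipoprotein gene apolpp stood at 0.86 (adjusted p = 0.436). In bulk heads, more fat body cells and more RNA per cell cannot be told apart. Of 12 tested sex-related genes 2 rose, the yolk protein genes Yp3 (1.16) and Yp2 (1.00), which the fat body of females makes, and 0 fell. The dosage compensation RNA roX1, made in males, had authors' means of 65.97 (mutant) and 83.3 (control) (adjusted p = 0.933). The part of fat body content or of the sex of the flies in the storage protein values was not tested.

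Genes of the hormones that time storage protein expression in larvae were read beside the 4.46% of all tested genes that were called. Ecdysone, the moulting steroid, and juvenile hormone time the expression of fat body genes in the larva. Of 24 ecdysone response genes tested, 1 rose, ImpL2, a secreted insulin-binding protein (0.63, adjusted p = 0.0177), and 0 fell. The receptor gene EcR stood at -0.23 (adjusted p = 0.973). None of 4 tested ecdysteroid synthesis genes passed. Of 13 juvenile hormone genes, 2 rose, the epoxide hydrolases Jheh1 (0.60, adjusted p = 0.0159) and Jheh2 (0.58, adjusted p = 0.00647), which break the hormone down, and 0 fell. None of 18 genes of autophagy and storage granules passed, nor did the 3 prophenoloxidase genes, which belong with the hexamerins to one superfamily, with log2 fold changes from -0.19 to 0.24. Neither Adh, the alcohol dehydrogenase gene to which Fbp2 is related, nor Fdh, another dehydrogenase gene, passed, at -1.19 and 1.00. These values are from the authors' deposited table.

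A few other genes linked to moulting and the adult cuticle were higher in the mutant. Across all tested genes 2.56% were called higher and 4.46% in either direction in the authors' deposited table. Of 11 larval and prepupal genes tested, 1 rose, the cuticle protein gene Edg91 (1.37, adjusted p = 0.00399), and 0 fell. The list median was -3.50, and the tested genes at or below it were all highest in the deepest control library. Lcp3 was at 88.3 there, against 0.930 and 6.97 in the middle and shallowest control libraries, and Sgs1 at 28.5 against 5.58 and 5.98. Of 14 cuticle maturation genes, 2 rose and 1 fell in the authors' deposited table. Their median log2 fold change was -0.04, against -0.04 for all tested genes. Acp65Aa, an adult cuticle protein gene, rose by 7.18 (adjusted p = 2.15e-10), from 1.16 to 2.79 in the control libraries to 27.7, 305 and 507 in the deepest, middle and shallowest mutant libraries. Eh, the eclosion hormone gene, rose by 2.52 (adjusted p = 8.90e-05), with 205.5 to 283 in the mutant and 15.1 to 62.3 in the control libraries. The pigmentation gene y fell by 1.67 (adjusted p = 5.96e-09). Another adult cuticle protein gene, Acp1, stood at -0.04 and did not pass (adjusted p = 0.994). Fitted to the recovered libraries, which hold 11 of the 21 fat body genes, limma called 0 genes higher in the ecdysone, juvenile hormone, fat body, larval and cuticle maturation lists. With depth rank as a term it called higher 4 of 25 recovered ecdysone, 2 of 12 juvenile hormone and 8 of 11 fat body genes. It also called higher 1 of 19 recovered larval and 2 of 14 cuticle maturation genes, all counted before the filter on low values. Of all 11596 genes in that setting 818 were called higher, and 16.0% were called in either direction. The middle mutant library, lowest for Lsp2 and Lsp1beta, was not the lowest for Acp65Aa, Eh or Edg91, whose lowest mutant library was the deepest one.

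Markers of other cells of the head and of tissues that could be carried over were read from the same table. Across all tested genes 4.46% were called in either direction. Photoreceptor genes fell in 12 of 14 tested and rose in 0. Neuronal genes were called in 0 of 10 in either direction and muscle genes in 0 of 11, which is near that share. Median log2 fold changes were -1.45 for photoreceptor, -0.50 for neuronal and -0.30 for muscle genes, against -0.04 for all tested genes. limma with depth rank as a term called 7 of 11 recovered neuronal and 2 of 6 recovered muscle genes lower. In that setting 1037 of 11596 genes were called lower. Of 13 hemocyte genes 1 fell (NimC1, -4.20) and 0 rose. Of 6 tested gut genes 2 rose (LManI, 1.26, and Amy-d, 1.76) and 0 fell; Amy-d has a near-identical copy, Amy-p, so the split of reads between them is uncertain. The shallowest mutant library, the highest for Lsp2, Lsp1beta and Lsp1gamma, had reads of 10 of 11 gut genes, against 5 in each other mutant library and 11, 6 and 5 in the deepest, middle and shallowest control libraries. The digestive protease genes Jon65Aiii, Jon65Aiv, alphaTry and betaTry were at 208, 211, 95.2 and 37.2 in it and at most 9.87 in any other library, and Amy-p was at 1393 against at most 349. The part of gut transcripts in the storage protein values was not tested. Without that library the folds of Lsp2 and Lsp1beta were 22.9 and 5.22, as given above. Of the tested ovary genes, Cp19 rose (3.16), while Cp18 stood at -1.77 and did not pass (adjusted p = 0.308). The other tested row of that list, Nos, is a different gene from the listed nos and is not read as an ovary gene. No testis gene was tested.

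The genes whose pattern over the 6 libraries was most like the storage protein genes were sought among 3051 recovered genes with a mean of at least 5 and an SD of at least 0.5 over the libraries on the log2 scale. Against the mean profile of the 5 storage protein genes with a mean of at least 5, the highest Pearson r values were 0.96 for an unannotated locus, 0.96 for Cyp4g1, 0.94 for Claspin, 0.93 for Or47a and 0.93 for CG10910. That profile mixes genes that are high in different groups. Against the mean of Lsp2 and Lsp1beta alone, a choice made after their values were seen, the highest were Cyp4ac2 (0.99), CG12224 (0.99), tobi (0.98), CG3513 (0.97) and alpha-Est5 (0.97). Of these, tobi, an alpha-glucosidase gene annotated as a glycoside hydrolase, had the largest log2 fold change, 2.95 (adjusted p = 2.03e-05 in the authors' deposited table). Its mutant libraries were at 792, 286 and 1513 and its control libraries at 84.2, 112 and 139. With 6 libraries in 2 groups many genes reach a high r, and these values are a description. The genes were chosen for this likeness, so the order of mutant libraries that all 5 share with Lsp2 and Lsp1beta follows from the choice. The order of control libraries differed among these genes.

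**Figure D5:**
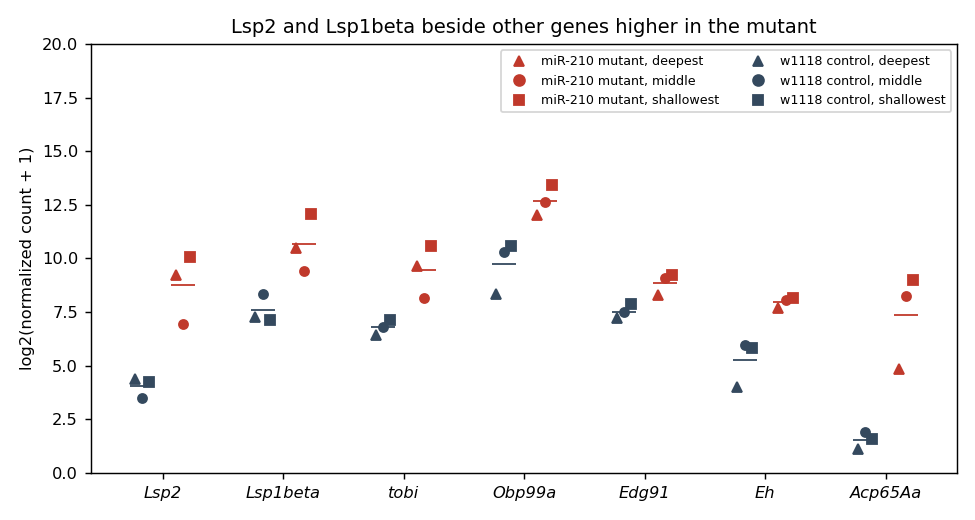
Log2(normalized count + 1) (vertical axis) of Lsp2, Lsp1beta and 5 other genes called higher in the mutant, with 1 point per recovered library and a line at the group mean on that scale. The middle mutant library is the lowest for tobi (286), which was chosen for its likeness to Lsp2 and Lsp1beta, and those of Obp99a, Edg91, Eh and Acp65Aa have the deepest library lowest.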

How the data were processed

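RNA of adult heads was measured in 3 miR-210 mutant and 3 w1118 control samples as total RNA on an Illumina NovaSeq, per the labels. The submitters' processing notes name FastQC, HISAT2, featureCounts, DESeq and the dm6 genome, without versions or order. The authors deposited 1 table of 13541 genes with the mean normalized count of each group (a signal that is no raw count), a log2 fold change, a p-value and an adjusted p-value, and no columns per sample. A call is an adjusted p under 0.05 in the authors' deposited table, which adjusts over 11155 genes; another 2386 are listed at an adjusted p of 1 and counted as not tested. The planned test on counts could not be run on group means, and these calls are the main result.

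Each group mean is the average over 3 libraries of whole reads divided by a size factor, so the reads of each library were recovered for means up to 10000 as the single combination of whole numbers that gives the deposited value. Recovery was tested on simulated data. limma 3.58.1 (R 4.3.3, trend, robust) was fitted to log2(normalized count + 1) for all recovered genes with a mean of at least 1. Its fold changes understate those of low genes. Exact permutation tests used scipy 1.17.1. Alternatives were other pseudocounts, filters and scaling, depth rank (deepest or not) as a term, the deepest libraries left out, and each library left out.

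The genes and the 17 context lists were chosen with earlier results of these data known. Genes are named by rule: all storage protein genes, up to 3 called genes per list with the largest fold change, the nearest gene on each side, and the 5 most alike over libraries. Some further list and marker genes were chosen after their values were seen. Strandedness of the counting is not given in the sources used here. Coordinates are those of the table and match the BDGP6 annotation. Promoter motifs and protein sequences were not compared here.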

Additional observations from a re-analysis of the deposited data

How the results depend on the processing

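No paired analysis was possible because the table has no columns per sample and the recovered libraries carry no replicate number. Fbp1 (-2.09 to -0.82), Fbp2 (-2.51 to -0.75; filtered out at a mean of at least 5) and Lsp1alpha missed the threshold in every limma setting run. Lsp1alpha ranged from -1.88 to -0.0044, with -0.18 without the deepest control library and -0.0044 with the deepest libraries left out, so it has no stable direction. Lsp2 (log2 fold change) missed the threshold with a pseudocount of 0.5 (4.77) or 5 (4.42), with a mean of at least 5 (4.72), with depth rank (deepest or not) as a term (4.72) or the deepest libraries left out (4.64), and ranged from 4.07 to 5.62 with 1 library left out. Lsp1beta missed it in limma on the recovered libraries (3.09), with a pseudocount of 0.5 (3.09) or 5 (3.06), with no filter or a mean of at least 5 (3.09), with equal totals (3.06), with the deepest libraries as a term (3.09) or left out (3.01), and from 2.39 to 3.70 with 1 library left out. Lsp1gamma reversed to -1.22 in limma on the recovered libraries, -1.57 and -0.48 with a pseudocount of 0.5 and 5, -1.22 with no filter, with a mean of at least 5 and with the deepest libraries as a term, -1.27 with equal totals, -0.17 with the deepest libraries left out, and from -2.85 to -0.0047 with 1 library left out. The cause was not tested.

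The number of storage protein genes called higher was 1 in limma, with no filter and with equal totals, 0 with a pseudocount of 0.5 or 5, a mean of at least 5, or the deepest libraries as a term or left out, and 0 to 1 with 1 library left out. Of all genes, 286 were called higher and 211 lower by the authors. limma called 50 and 65, with a pseudocount of 0.5 42 and 58, of 5 56 and 68, with no filter 46 and 61, with a mean of at least 5 47 and 64, with equal totals 46 and 63, and with the deepest libraries as a term 818 and 1037. With those libraries left out 378 were higher and 468 lower, and with 1 library left out 8 to 28 were higher and 13 to 47 lower. limma called 0 higher for the ecdysone, juvenile hormone, fat body, larval, cuticle maturation, sex, gut and ovary lists, and 1 photoreceptor gene lower, of 1 recovered. With the deepest libraries as a term, genes called higher were 8 fat body, 4 ecdysone, 2 juvenile hormone, 2 cuticle maturation and 1 larval gene. Also called higher were 1 ovary, 1 autophagy, 1 hemocyte, 1 gut and 0 sex genes, and 1 of Adh and Fdh. In that setting 1 ecdysone, 1 larval, 3 cuticle maturation, 2 hemocyte and 3 sex genes were called lower. So were 1 photoreceptor, 7 neuron and 2 muscle genes, and 1 of Adh and Fdh.

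Depth limits Lsp1alpha, Fbp1 and Fbp2, whose mutant reads sum to 4, 8 and 1.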
